A study of Mus musculus with 4 samples.

Results

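The 28 genes described here encode proteins of the small subunit of the cytosolic ribosome, and they were taken by name from the 21627 protein-coding genes of the autosomes and the X chromosome. Deaf1, a transcription factor that binds DNA through a SAND domain, was precipitated from crosslinked chromatin of C2C12 cells, a mouse myoblast line that can fuse into myotubes. Peaks had been called separately in each of 2 replicates. The cells are myocytes by the sample labels and differentiated myoblasts by the description of the series. No genetic change or treatment is named for any sample, there was 1 condition, and 2 input samples entered no comparison. The labels number the replicates without saying whether they came from separate cultures, so the spread between them may be technical.

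Ribosomes translate messenger RNA, and their small subunit binds the message and reads its codons. It is built from a ribosomal RNA and a set of proteins that form its head, platform and body. Ribosomal protein genes are transcribed at high rates in growing cells, including myoblasts, and many of their messages begin with a run of pyrimidines, the terminal oligopyrimidine tract, through which mTORC1 controls their translation.

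A gene was called occupied where both lists had a summit, the highest point of a peak, within 1 kb of the same end of its RefSeq span on mm10. By this rule 20 of the 28 small subunit genes (71.4%) were occupied, where 51.6% of all protein-coding genes were. The 28 leave out some genes of the subunit. Of 6 such genes 2 were occupied (33.3%), and with these added the count was 22 of 34 (64.7%). Deaf1 peaks were thus present at most of the 28 genes, at a level that was seldom high. The authors' fold enrichment, the ratio of the fragments piled up at the summit to the local background with 1 added to both, had a median of 14.7 in replicate 1 and 9.23 in replicate 2 over the 20 genes. Over all 11161 occupied genes the medians were 16.4 and 15.2. Only 8 members (28.6%) had a fold of 10 or more in both lists, against 35.8% of all protein-coding genes. For a fold of 20 or more the numbers were 1 member (3.57%) and 11.4%. The peaks of replicate 2 at the members stood near the middle of their own list, with a median percentile of 53.6 by fold, against 73.8 for all occupied genes. In replicate 1 the median percentiles were 86.6 and 89.3. No peak list of a control was used, so signal common to promoters and binding by Deaf1 cannot be told apart.

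The summits gathered just downstream of the annotated start. RefSeq promoter entries gave a start and strand for 24 members, and 17 of these had a summit of both lists within 1 kb of a start, where 54% of the 17273 genes with such an entry did. In 12 of the 17 (70.6%) the highest summit of each list lay 100 to 300 bp downstream of the start of the gene. Over all 9332 genes occupied at a start that share was 25.1%. Among the 27 large subunit protein genes occupied at a start it was 40.7%, and among 21 mitochondrial small subunit protein genes 23.8%. This range was chosen after the distances had been seen. With any distance downstream in both lists the shares were 88.2% for the members, 81.5% for the large subunit genes and 64.1% for all genes occupied at a start. The median distance at the members was 146 bp in replicate 1 and 140 bp in replicate 2, against 174 and 172 bp at the large subunit genes and 101 and 96 bp over all genes occupied at a start. The large subunit genes thus lay downstream as the members did, with wider quartiles of 95 and 298 bp in replicate 1 and 110 and 260 bp in replicate 2. The quartiles of the members were 110 and 196 bp in replicate 1 and 78 and 201 bp in replicate 2. Over all genes occupied at a start they were -31 and 201 bp, and -30 and 204 bp, so the members' upper quartile was close to the general one and their lower quartile stood farther downstream.

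**Figure D1:**
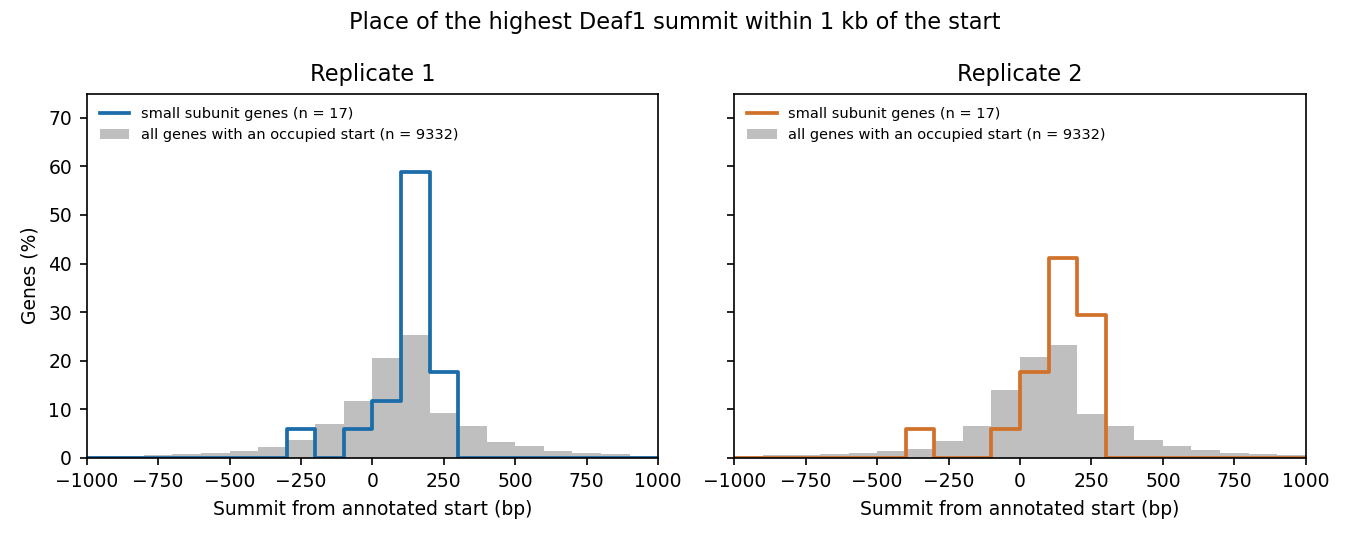
Percent of genes (vertical axis) by distance of the highest Deaf1 summit from the annotated start in bp, in bins of 100 bp, positive downstream, for replicate 1 (left) and replicate 2 (right). Coloured outlines are the 17 small subunit genes and grey bars the 9332 genes occupied at a start; the bin from 100 to 200 bp holds 10 and 7 of the 17.

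The members' peaks spanned the start itself at smaller shares than those of all genes occupied at a start. The replicate 1 peak reached over the start at 10 of the 17 members (58.8%), against 81.8% of all such genes, and the replicate 2 peak at 4 (23.5%), against 69.6%. Among the 27 large subunit genes the shares were 48.1% and 22.2%. The members' peaks were also narrower, with median widths of 554 bp in replicate 1 and 288 bp in replicate 2, against 705 and 506 bp over all occupied genes. The part of width and of fold in this difference was not tested.

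The sequences below run from 150 bases before the annotated start to 20 bases after it, on the strand of the gene, from RefSeq on GRCm38.p6. The windows of Rps10, Rps3a1 and Rps19, the 3 members with the highest lower fold of the replicates, are set beside those of Rps9, Rps25 and Rps28, which had no peak within 1 kb of an end in either list. Capitals mark TTCG, the core of the reported Deaf1 site, on either strand, where CGAA is the reverse complement.
Rps10, chr17:27635225-27635394, minus strand: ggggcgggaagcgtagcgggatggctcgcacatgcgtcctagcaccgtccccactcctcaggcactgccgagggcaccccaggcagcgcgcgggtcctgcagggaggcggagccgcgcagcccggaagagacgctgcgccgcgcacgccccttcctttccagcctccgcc
Rps3a1, chr3:86142649-86142818, minus strand: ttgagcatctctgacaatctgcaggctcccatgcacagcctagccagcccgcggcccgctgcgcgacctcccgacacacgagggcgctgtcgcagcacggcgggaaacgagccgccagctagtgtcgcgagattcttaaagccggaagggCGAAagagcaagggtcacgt
Rps19, chr7:24884442-24884611, plus strand: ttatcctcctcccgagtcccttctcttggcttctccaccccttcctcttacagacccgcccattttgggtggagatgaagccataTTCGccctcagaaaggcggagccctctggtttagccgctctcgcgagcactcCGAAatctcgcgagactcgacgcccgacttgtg
Rps9, chr7:3703891-3704060, plus strand: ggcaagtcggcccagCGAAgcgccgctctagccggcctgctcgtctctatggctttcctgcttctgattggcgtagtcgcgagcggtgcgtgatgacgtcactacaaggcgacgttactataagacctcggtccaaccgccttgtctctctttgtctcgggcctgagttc
Rps25, chr9:44407564-44407733, plus strand: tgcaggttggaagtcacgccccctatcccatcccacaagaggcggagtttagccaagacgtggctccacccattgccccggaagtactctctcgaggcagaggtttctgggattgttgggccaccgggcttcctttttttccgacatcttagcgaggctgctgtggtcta
Rps28, chr17:33824543-33824712, minus strand: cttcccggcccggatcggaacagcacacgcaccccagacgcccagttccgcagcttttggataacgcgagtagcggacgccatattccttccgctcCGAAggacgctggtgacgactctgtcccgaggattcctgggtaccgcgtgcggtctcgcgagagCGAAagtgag

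The letters TTCG did not separate the occupied from the other members in these windows. The window of Rps10, the member with the highest lower fold of the replicates, held none, and that of Rps28, without a peak, held 2. In the whole RefSeq window, 250 bases before to 50 after the first start, TTCG stood on either strand in 19 of 24 members (79.2%), 13 of the 17 occupied at a span end and 6 of the 7 others. These 17 are not the 17 occupied at a start, since they include Rps18 and leave out Rps2. The share was 49.4% over all 17273 genes and 61.0% over the 8852 of them that were occupied. TTCGGG, a longer form that contains TTCG, was found in 1 of 24, against 8.15% of all genes. TTCCGG, the core that ETS factors bind, was in 12 of 24 members, against 19.3% of all genes and 26.2% of occupied ones. CTTTCC was in 8 of 24 (33.3%), against 26.1%. The windows end before the place of most summits, so the bases under the summits were not searched.

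The pyrimidine run that marks these messages was looked for as the longest stretch of C and T touching the 5 bases on either side of the start. It was 8 bases or longer in 9 of 24 members (37.5%), against 9.36% of all genes. The search relied on the annotated start, and a run that did not touch these bases was not counted. At Rps25 a longer stretch of C and T ended just upstream of them, so a short run here does not show that a message lacks the tract. The large subunit genes were near the members, with 11 of 34 (32.4%). The windows shown reach 15 bases to each side of the start and have the counted run in capitals. They are the 4 longest counted runs, all at genes occupied at a span end, and the 3 members without a peak.
Fau, chr19:6057932-6057961, plus strand: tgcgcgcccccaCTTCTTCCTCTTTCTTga
Rps10, chr17:27635230-27635259, minus strand: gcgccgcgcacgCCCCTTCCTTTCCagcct
Rps18, chr17:33955651-33955680, minus strand: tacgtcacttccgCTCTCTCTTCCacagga
Rps6, chr4:86857353-86857382, minus strand: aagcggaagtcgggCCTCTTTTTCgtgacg
Rps9, chr7:3704026-3704055, plus strand: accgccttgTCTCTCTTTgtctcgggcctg
Rps25, chr9:44407699-44407728, plus strand: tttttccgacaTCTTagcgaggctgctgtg
Rps28, chr17:33824548-33824577, minus strand: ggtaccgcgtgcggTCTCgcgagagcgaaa

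Runs of this length stood at 7 of the 17 members occupied at a span end, Rps18 included, and 2 of the 7 others, Rps2 not among these 2. Fau has the longest counted run, 16 bases, and the lowest folds of the occupied members. Rps10 has 13 bases and the highest lower fold of the replicates. Rps9 has a run of 9 bases and no peak.

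Proteins of the head, the part of the subunit that swivels during translocation, were encoded by 12 members, of which 8 were occupied. Rps10, which encodes a head protein altered in some cases of Diamond-Blackfan anaemia, had folds of 27.5 and 20.8, in replicates 1 and 2. Its span is chr17:27630415-27635244, and its pileups were 85 and 65 fragments over backgrounds of 2.13 and 2.17. The summits lay 139 and 78 bp inside the gene from its start, and the peak was within reach of the lncRNA gene Gm15420 on the other side of that start. Rps10 was the only member with a fold of 20 or more in both lists.

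Rps19, the gene most often mutated in Diamond-Blackfan anaemia, had folds of 15.7 and 22.5 with pileups of 66 and 61 fragments. Its summits stood 163 and 135 bp inside the lower end of its span, chr7:24884592-24889811. Rps19 has 3 annotated starts, and no other gene had an end within reach of this peak.

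Rps20, whose protein is ubiquitinated when ribosomes collide, differed most in summit place among the occupied members, by 246 bp. The fold at Rps20 was 21.8 and 8.8. The summits lay 207 bp inside and 39 bp outside the higher end of chr4:3831584-3835655, with pileups of 80 and 65 fragments. The backgrounds were 2.72 and 6.5 fragments, so by ratio the replicates differed more in background than in pileup. A snoRNA gene inside Rps20 and the lncRNA gene Gm32823 had ends within 1 kb of both summits.

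Rps3, which lines the entry of the message channel, had a fold of 14.7 in replicate 1 and only 4.13 in replicate 2. The 2 summits lay 152 and 140 bp from the start, with pileups of 53 and 21 fragments and backgrounds of 2.67 and 4.33. The replicate 2 peak stood at percentile 4.92 of its list, and the call was lost when a fold of 5 or more was required. Rps15, a head protein close to the decoding site, had folds of 14.7 and 9.86 with summits 199 and 204 bp downstream. Rps16, whose tail reaches the transfer RNA in the peptidyl site, had 9.26 and 7.21 with summits at 143 and 152 bp. Rps29, a small zinc-binding protein, had 12.5 and 11.4, with summits 275 and 295 bp inside the higher end of its span and the small cytoplasmic RNA gene Rn7s1 beyond that end.

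Rps18 counted as occupied through a peak that did not lie at its start. Summits of both lists stood 621 and 770 bp outside the lower end of chr17:33951998-33955665, with folds of 14.7 and 6.83. They were 111 and 260 bp downstream of the start of B3galt4, a galactosyltransferase gene, and 4288 and 4437 bp downstream of the start of Rps18. At its own start Rps18 had a peak in replicate 1 alone, with a fold of 6.65 and a pileup of 31 fragments, 302 bp downstream. The call of Rps18 was lost with a 500 bp window. Among the occupied members, the summits taken at Rps18 were the farthest from an end of the member itself. Just outside the rule lay Rps2, with summits 1648 and 1638 bp from its lower end.

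The other 4 head genes were not occupied. Rps12 had a replicate 1 peak 65 bp from its start with a fold of 5.3 and 22 fragments. Rps27a, which encodes a fusion of ubiquitin and a ribosomal protein, had one with a fold of 4.38 and 18 fragments, and an end of Clhc1 lay 132 bp from that summit. The nearest replicate 2 summits to the ends of these genes were 9681 and 19321 bp away. Rps25, needed for initiation at some viral internal entry sites, and Rps28, near the exit of the message, had no peak near an end in either list. The nearest peaks to Rps25 lay 7480 and 7539 bp away with folds of 14.4 and 10.6, and those to Rps28 lay 5338 and 5323 bp away with 16.2 and 13.5.

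**Figure D2:**
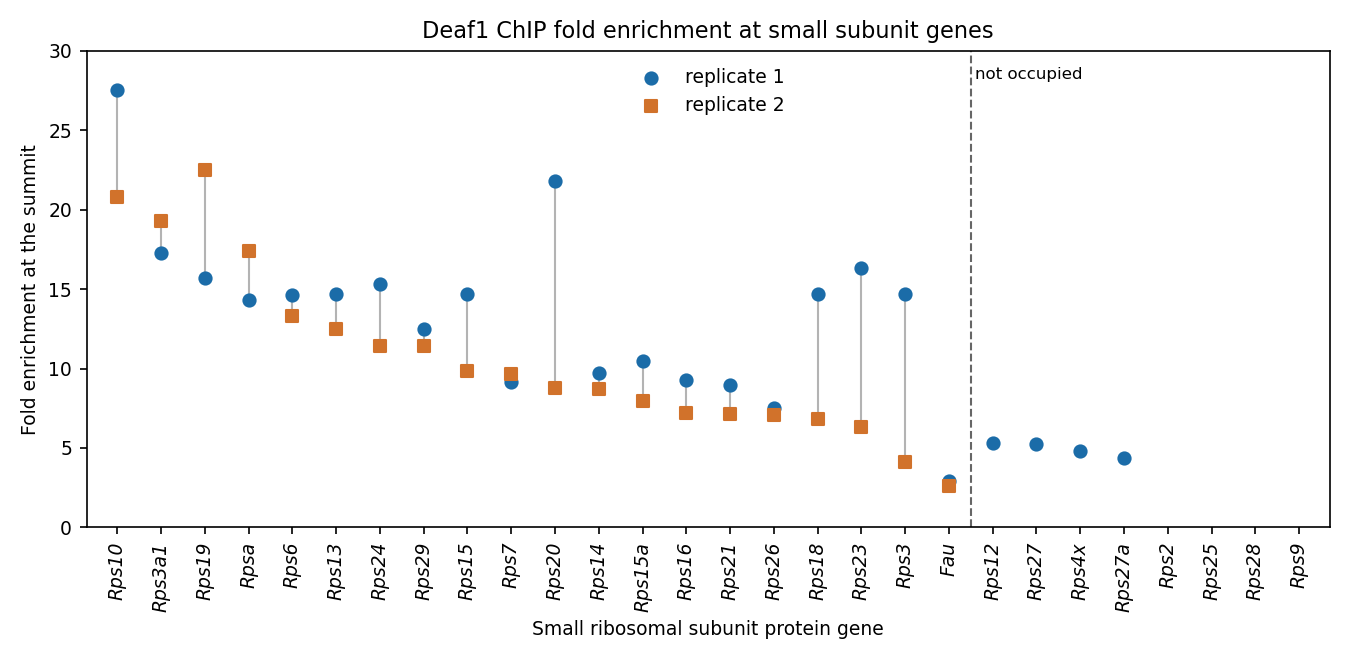
Fold enrichment at the summit (vertical axis, from 0) for each small subunit gene (horizontal axis), with circles for replicate 1 and squares for replicate 2, in order of the lower of the replicates. Genes right of the dashed line were not occupied, and 4 of them had a peak in replicate 1 alone; the folds run from 27.5 and 20.8 at Rps10 to 2.94 and 2.6 at Fau.

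The platform, where the message leaves the subunit, was represented by 6 members, and 5 were occupied. Rps3a1 led them with folds of 17.3 and 19.3, pileups of 54 and 50 fragments and summits 250 and 284 bp downstream of its start, in the span chr3:86137940-86142668. Rpsa, which is also known as the laminin receptor gene, had folds of 14.3 and 17.4 with summits at 146 and 139 bp. Rps14, whose loss contributes to the anaemia of a myelodysplastic syndrome, had 9.73 and 8.7 with summits 234 and 233 bp inside its lower end. The summits of the replicates were 34 bp apart at Rps3a1, 7 bp at Rpsa and 1 bp at Rps14. The median over the occupied members was 27 bp.

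Rps21, a partner of Rpsa in the assembled subunit, had folds of 8.98 and 7.11, and the span of Rps21 is so short that both its ends lay within 1 kb of these summits. An end of the microRNA gene Mir3091 lies 8 and 32 bp from the summits. Rps26, which contacts the message near the exit, had folds of 7.49 and 7.1. Pileups at Rps26 were 44 and 28 fragments, and the backgrounds were 5.01 and 3.09, above the lowest levels of 2.13 and 1.64 in the lists. Rps27, a zinc-binding protein gene, was the platform member that was not occupied. It had a replicate 1 peak with a fold of 5.26 and 18 fragments, 146 bp downstream of its start and 213 bp upstream of the start of Rab13, and the nearest replicate 2 summit lay 7177 bp away.

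The body was represented by 10 members, and 7 were occupied. Rps6, the substrate of the S6 kinases under mTORC1, had folds of 14.6 and 13.3, with pileups of 55 and 49 fragments and summits 169 and 112 bp downstream. Rps23, which carries a hydroxylated proline in the decoding centre, had 16.3 in replicate 1 and 6.35 in replicate 2, although its summits were 7 bp apart, at 114 and 121 bp. Rps24, another Diamond-Blackfan gene, had folds of 15.3 and 11.4, with summits 364 and 338 bp inside the lower end of its span. Rps13, whose protein helps to bridge the subunits, had 14.7 and 12.5 with summits at 196 and 180 bp.

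Rps7, needed for processing of the ribosomal RNA precursor, had folds of 9.15 and 9.65, and Rps15a had 10.5 and 7.96. In both genes the summits lay 178 to 293 bp downstream in both lists. Fau, which encodes a ribosomal protein fused to a ubiquitin-like one, had the lowest folds, 2.94 and 2.6, in the span chr19:6057947-6059524. Its pileups of 49 and 41 fragments compare with medians of 49.5 and 31.5 over the occupied members. The backgrounds at Fau were 16.0 and 15.2 fragments, the highest among the occupied members. The summits lay 99 and 58 bp upstream of Fau and 93 and 134 bp upstream of the start of Mrpl49, a mitochondrial ribosomal protein gene. They thus stand between the pair, while the replicate 1 peak, 573 bp wide, reached over both starts. The call at Fau was lost when a fold of 5 or more was required.

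Of the body genes that were not occupied, Rps2, a protein of the message entry, did have peaks in both lists. They had folds of 14.4 and 9.08 with 54 and 27 fragments, and their summits stood at -294 and -304 bp from its annotated start. The span of Rps2, chr17:24718121-24721927, begins farther upstream than this start, which put the summits beyond 1 kb of its ends. They stood 196 and 206 bp downstream of the start of Snhg9, an lncRNA gene, and 63 and 73 bp from an end of the snoRNA gene Snora78. Rps4x, on the X chromosome, had a replicate 1 peak 10 bp downstream of its start, with a fold of 4.79 and 14 fragments, and the nearest replicate 2 summit lay 6295 bp from an end. Rps9, a protein that affects decoding accuracy, had its nearest summits 9425 and 9374 bp from an end.

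**Figure D3:**
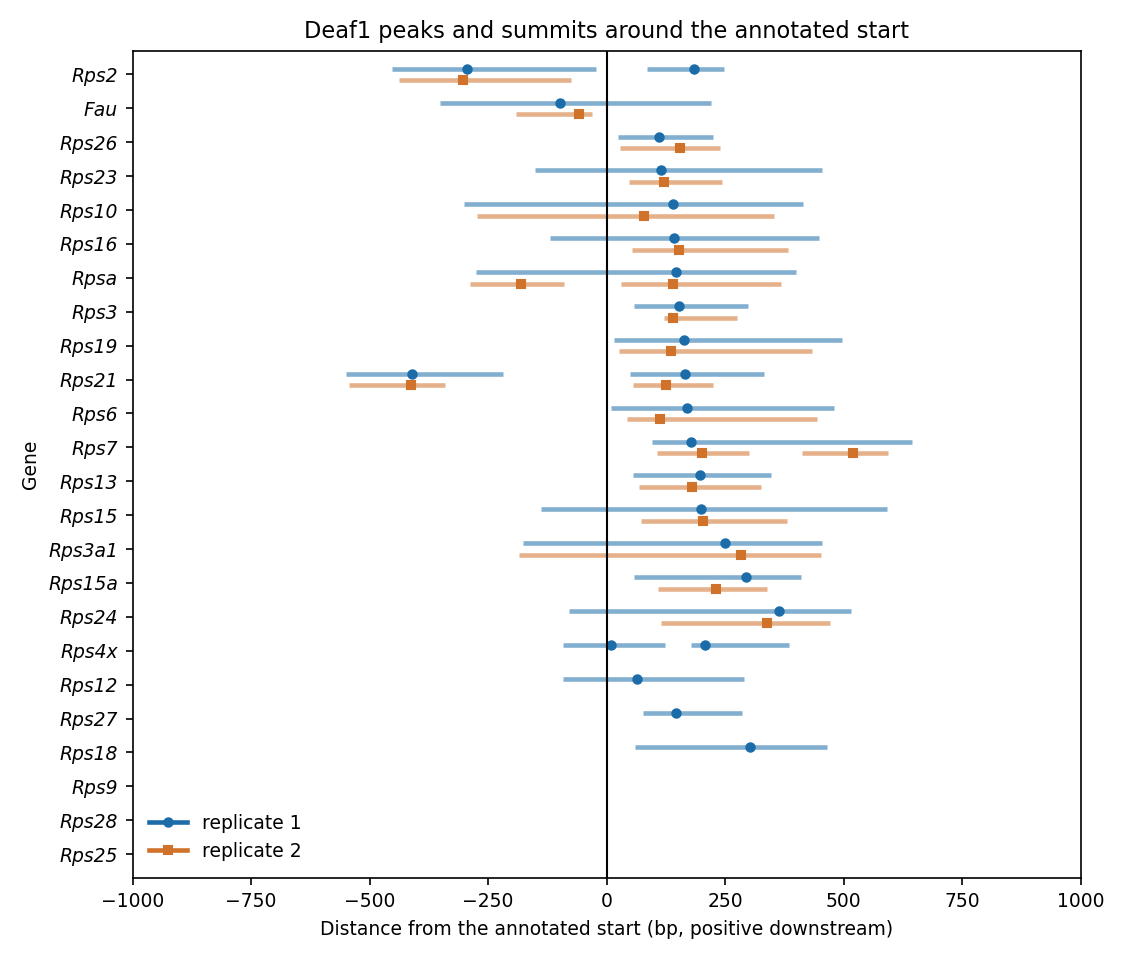
Deaf1 peaks (bars) and summits (markers) around the annotated start (vertical line; the first start where a gene has several) of the 24 small subunit genes with one, in bp, positive downstream; blue circles are replicate 1 and orange squares replicate 2. Most summits stand right of the line between 100 and 300 bp, those of Fau and the highest ones of Rps2 stand left of it, and 3 genes have no peak.

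At most members the summits of the replicates lay close together, while at some the folds differed by more than 2-fold. The rule required both summits within 1 kb of the same end and set no limit on fold, so closeness in place was partly selected. The summits taken at the 20 occupied members were within 100 bp of each other in 18, with a median of 27 bp apart, and over all occupied genes 79.0% were, with a median of 24 bp. The exceptions were Rps20 and Rps18. The fold was higher in replicate 1 at 16 of 20 members (80.0%), and at 59.3% of all occupied genes. The median ratio of replicate 1 to replicate 2 was 1.22 at the members and 1.08 over all occupied genes. Rps3, Rps20, Rps23 and Rps18 had more than a 2-fold difference, each with replicate 1 higher, and Rps19, Rps3a1, Rpsa and Rps7 were higher in replicate 2. Across the 20 genes, which share the same pair of libraries and are not independent replicates, the folds had a Spearman rho of 0.465, against 0.78 over all occupied genes. These differences were not tested.

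**Figure D4:**
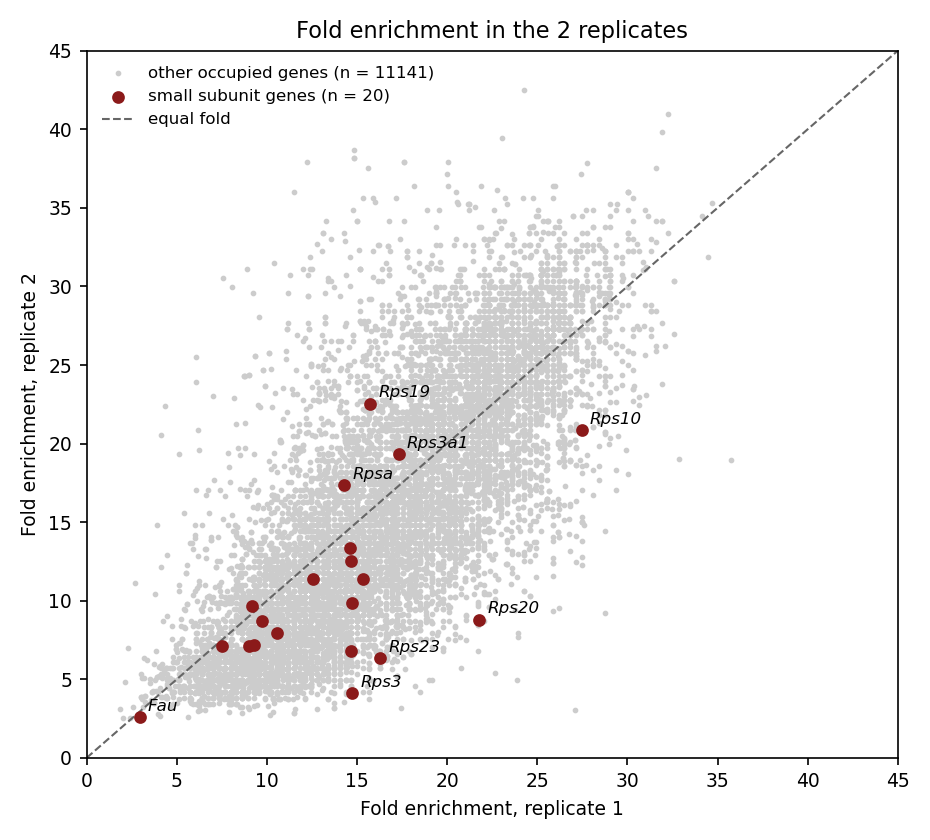
Fold enrichment in replicate 1 (horizontal) and replicate 2 (vertical) at the 20 occupied small subunit genes (dark red) and the 11141 other occupied genes (grey), with a dashed line of equal fold. Of the dark red points 16 lie below the line, Rps20, Rps23 and Rps3 far below it.

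The count of occupied members depended little on the window and more on the list. It was 19 with a 500 bp window (43.2% of all genes) and 21 with a 2 kb window (56.4%). It was 18 when a fold of 5 or more was required in both lists (48.8%). From replicate 2 alone it was 20 (52.3%), and from replicate 1 alone 24 (61.8%). Within 300 bp of an annotated start, a window chosen after seeing the data, 16 of 24 members had a summit of both lists (41%).

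A raised local background was more common at the members. It exceeded the lowest level of its list by more than 0.003 fragments at 13 of 20 members (65.0%) in replicate 1 and 12 of 20 (60.0%) in replicate 2. Over all occupied genes the shares were 42.9% and 37.8%. In replicate 1 the 5 highest backgrounds among the members were those of Fau, Rps26, Rps21, Rps7 and Rps14, whose folds were 9.73 or lower. Fold is a ratio over this background, so a high background goes with a lower fold partly by definition. Rps16 had a fold of 9.26 at the lowest background, 2.13. The median pileup was also lower at the members, with 49.5 fragments in replicate 1 against 60.0 over all occupied genes. In replicate 2 it was 31.5 fragments, again below the median of all occupied genes. The parts of background and pileup in the members' lower median fold were not tested. The 4 members with a peak in replicate 1 alone had pileups of 14 to 22 fragments, below the 28 to 85 of the occupied members.

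Another protein-coding gene had an end within 1 kb of the summits of both lists at 2 of the 20 occupied members. These were Rps18, with B3galt4, and Fau, with Mrpl49. Noncoding genes were within reach at 8 of the 20, and 10 had no other gene end within reach. At Rps16, Rps3 and Rpsa the only noncoding gene within reach was a snoRNA gene inside the member. At Rps21 it was Mir3091, which also lies inside the span. Such sharing was not counted over all occupied genes, so whether the members differ from them in this is not known. Ribosomal protein genes often carry small nucleolar RNAs, which guide the modification of ribosomal RNA, in their introns. Such genes lay inside 8 members, 14 in all, among them Snord15a and Snord15b in Rps3, Snord14a in Rps13 and Snord73a in Rps3a1. Of these 8 hosts 6 were occupied, and of the 20 members without a snoRNA gene 14 were.

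Large subunit, mitochondrial and assembly genes had shares of occupied genes near that of the members. Of the large subunit protein genes 35 of 47 (74.5%) were, with median folds of 14.8 and 11.0, among them Rpl14 (26.8 and 27.7) and Rpl10a (23.0 and 21.6). Of the mitochondrial small subunit genes 25 of 32 (78.1%) were, with medians of 15.6 and 11.7, led by Mrps24, Mrps6 and Mrps15. Of the genes for assembly of the small subunit 26 of 33 (78.8%) were, with medians of 13.8 and 10.4, led by Utp4, Dhx37 and Tsr3. The large subunit, mitochondrial and assembly lists each stood above the share for all genes and had median folds below those of all occupied genes, as the members did.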

How the data were processed

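Deaf1 ChIP and input DNA of C2C12 cells were sequenced, with 2 samples of each, and the peak lists of the ChIP samples (65606 and 26503 peaks) were analysed. The tools were BWA and MACS2, and the build mm10, per the submitters' processing notes. Their versions and parameters, and the control, were not given in the sources used here. For each peak of each replicate the authors deposited a fold enrichment, a −log10 p-value and a −log10 q-value. In all peaks of both lists the deposited score was that −log10 p multiplied by 10 and truncated. Positions were converted to count from 1. Read depth is not known from these lists. Pileup and local background were solved with a Poisson model from each peak's deposited fold and p-value (largest misfit in −log10 p 4.07e-05). The solution recovered 100% of 1886 peaks simulated with the same formula, at folds below those of many members. This recovery checks the solving only, not whether the model holds.

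Gene spans (GRCm38.p6, all RefSeq models), starts, strands and promoter sequences came from RefSeq. Where an end had several summits the highest fold was taken, and of 2 occupied ends the one with the higher lower fold. For distances from the start of a gene with several, as in the counts over all genes, the start with the higher lower fold, then the nearest, was taken. Every member is named. Of the other lists the 3 occupied genes with the highest lower fold were named, and a few items are not reported here. Members and lists were chosen with earlier results of these data known. Shares are descriptions, with no test. Other windows, thresholds, list lengths, ends and single replicates were tried. Python 3.11.15 with pandas 2.3.3 and scipy 1.17.1 was used.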

Additional observations from a re-analysis of the deposited data

How the results depend on the processing

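No paired analysis was possible because the inputs, which carry the same replicate numbers as the ChIP samples, were not analysed here. The count of occupied members was 20 and ran from 18 (both folds at least 5) to 21 (a 2 kb window). From single lists it ran from 20 to 24, the higher value with replicate 1 alone, where Rps4x, Rps12, Rps27 and Rps27a were added. The share of all genes ran from 52.3% to 61.8% over the single lists. Over the single lists the large subunit count ran from 38 to 41, the mitochondrial one from 25 to 29 and the assembly one from 26 to 30. At annotated starts 17 of 24 members were occupied, Rps2 gained and Rps18 lost. A 300 bp window around the start was chosen after seeing the data; it gave 16 of 24 members, against 41% of all genes, and 18 of the 34 large subunit genes with a start. The fall of the latter from 35 comes partly from the fewer genes with a start. Other counts stayed within 1.5 times their value, and the median fold of occupied members ran from 14.6 to 14.7 and from 9.08 to 9.65.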

Other observations

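Several members had a further peak near their start. Upstream of Rps21 both lists had a lower peak, at -410 and -412 bp from its first start, with folds of 4.75 and 3.85 and pileups of 27 and 17 fragments. At Rpsa a replicate 2 peak with a fold of 5.66 stood 180 bp upstream of the start, where the single replicate 1 peak extended over both places. At Rps7 a further replicate 2 peak (fold 6.83) stood 519 bp downstream, within the stretch covered by the replicate 1 peak. At Rps2 a peak of replicate 1 alone stood 185 bp downstream of the annotated start, with a fold of 5.48 and 17 fragments, near the place where the other members have theirs. At Rps4x replicate 1 had a lower peak, with a fold of 3.83, 207 bp downstream. Beyond the far end of Fau both lists had peaks 1807 and 1985 bp outside the span, with folds of 4.04 and 5.81, higher than at Fau itself.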
